A study of Mus musculus with 32 samples.

Results

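The immediate early genes of the AP-1 and Egr families were followed through tumors and cultures of a mouse cancer line and its anti-PD-1 resistant form. The set held 10 genes, taken by name from the deposited table of 22329 genes: Fos, Fosb, Fosl1, Fosl2, Jun, Junb, Jund, Egr1, Egr2 and Ier2. Of these, 9 were above zero in some library, and Jund was listed at 0 TPM in all 32 libraries. RNA was sequenced from MC38, a line labelled colon adenocarcinoma, in an anti-PD-1 resistant form and in its parental form. Anti-PD-1 antibodies release T cells from inhibition by their receptor PD-1. How resistance was obtained is not given in the sources used here. The 4 groups were 12 subcutaneous tumors of the resistant line, 13 subcutaneous tumors of the parental line, 5 libraries of cultured resistant cells and 2 libraries of cultured parental cells. All tumors grew in C57BL6/J mice that received no treatment, and the cultured cells were untreated too, so no library had been exposed to anti-PD-1 in this experiment. Whether the libraries of cultured cells stem from separate cultures is not stated in the labels, and p-values there measure only how far these samples spread, which may be technical variation. In tumors, fewer cells of a type and less RNA per cell cannot be told apart.

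The values are TPM, the level of a transcript per length as a share of its library, so levels can be set side by side between genes. Depth per library is unknown. Genes reaching 1 TPM numbered 11573 to 12809 in resistant tumors, 11963 to 13308 in parental tumors, 10470 to 10799 in resistant cultures and 10654 to 10978 in parental cultures. Markers of colon epithelium were low throughout. Their summed level over 7 genes was 0.861 to 6.31 TPM in resistant tumors, 2.05 to 10.5 TPM in parental tumors, 0.0473 to 0.241 TPM in resistant cultures and 2.30 to 4.18 TPM in parental cultures. Between the cultures only 1 of the 7 was tested, Krt20, with a limma log2 difference of -1.85 ± 0.28 (SE, resistant minus parental). It reached the 1 TPM filter through the parental cultures alone, so its direction was set by the filter. Krt8 was listed at 0 in all resistant cultures, and Epcam and Krt18 in both parental cultures. Libraries also differed in how they represented GC-rich genes. A GC index, which subtracts the median log2 level of GC-poor genes from that of GC-rich ones, ran from -0.52 to 0.26 in resistant tumors and from -0.27 to 0.81 in parental tumors. It exceeded 0.5 in 4 parental tumors, replicates 2, 3, 7 and 8, and their values are given beside the tumor results they move with.

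AP-1 is a family of paired transcription factors. Jun proteins pair with each other or with Fos proteins and bind a short palindromic site, while Fos proteins need a Jun partner. Growth factors, cytokines, stress and tissue handling switch many of these genes on within minutes through the ERK, JNK and p38 kinases, without new protein synthesis, and their mRNAs decay quickly. Egr1 and Egr2 encode zinc finger factors that bind GC-rich sites, and Ier2 encodes a small nuclear protein induced by the same signals. In tumor cells with active Ras signaling, Fosl1 is the Fos family gene best known for sustained expression.

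Promoters of these genes are known for sites that read the kinase signals, so stretches of 5 promoters are shown that between them hold 1 example or more of each motif found. RefSeq promoters on GRCm38.p6 were matched for 7 of the 10 genes, with 5 alternative starts for Egr2. Fosl1, Egr1 and Ier2 had no entry. Each stretch begins at position -150, counted back from the start of transcription, and runs 5′ to 3′ on the gene's own strand. Capitals mark TGACG, the core of a cAMP response element bound by CREB and ATF factors, in Fos and Junb. They mark TGACATCA in Jun, an element of the kind through which Jun and Atf2 are known to act on the Jun promoter itself. They mark an Egr site in Fosb and a CArG box, the binding site of serum response factor, in Egr2.
Fos (chr12:85473740-85473889, plus strand): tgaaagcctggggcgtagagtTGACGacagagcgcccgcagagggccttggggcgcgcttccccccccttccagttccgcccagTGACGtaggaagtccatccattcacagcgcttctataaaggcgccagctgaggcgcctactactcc
Fosb (chr7:19310052-19310195, minus strand): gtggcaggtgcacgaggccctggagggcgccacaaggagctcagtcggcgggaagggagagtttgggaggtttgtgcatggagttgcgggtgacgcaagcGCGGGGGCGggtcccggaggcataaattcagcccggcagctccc
Jun (chr4:95052223-95052372, minus strand): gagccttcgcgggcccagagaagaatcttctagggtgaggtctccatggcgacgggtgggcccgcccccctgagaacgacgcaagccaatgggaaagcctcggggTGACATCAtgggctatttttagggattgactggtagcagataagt
Junb (chr8:84978749-84978898, minus strand): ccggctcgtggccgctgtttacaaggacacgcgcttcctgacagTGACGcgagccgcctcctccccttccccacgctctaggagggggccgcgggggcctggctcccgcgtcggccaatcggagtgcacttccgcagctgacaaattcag
Egr2 (chr10:67537719-67537868, plus strand): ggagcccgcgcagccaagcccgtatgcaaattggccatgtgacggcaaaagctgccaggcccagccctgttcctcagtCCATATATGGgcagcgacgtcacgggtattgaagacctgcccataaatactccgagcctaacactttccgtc

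The capitals begin at -129 and -66 in Fos, -50 in Fosb, -45 in Jun, -106 in Junb and -72 in Egr2. Motifs were searched on both strands in the 250 bases before each start, and 11 promoters of the set were set beside 32851 RefSeq promoters. The CArG box was in 4 of the 5 Egr2 promoters and in 1.47% of all promoters. An Egr site, GCGTGGGCG or GCGGGGGCG, was in the Fosb and Fosl2 promoters and in 3.06% of all. TGACG was in 6 of the 11 promoters, those of Fos, Fosb, Junb and 3 of Egr2, and in 17.8% of all. TGACATCA was in the Jun promoter and in 2.93% of all. The full cAMP response element TGACGTCA and the AP-1 site TGACTCA were in none of the 11 promoters, and in 1.55% and 4.46% of all. TGACG, which TGACGTCA contains, and TGACATCA were added to the search after the sequences had been read. A match describes letters in this window only.

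**Figure D1:**
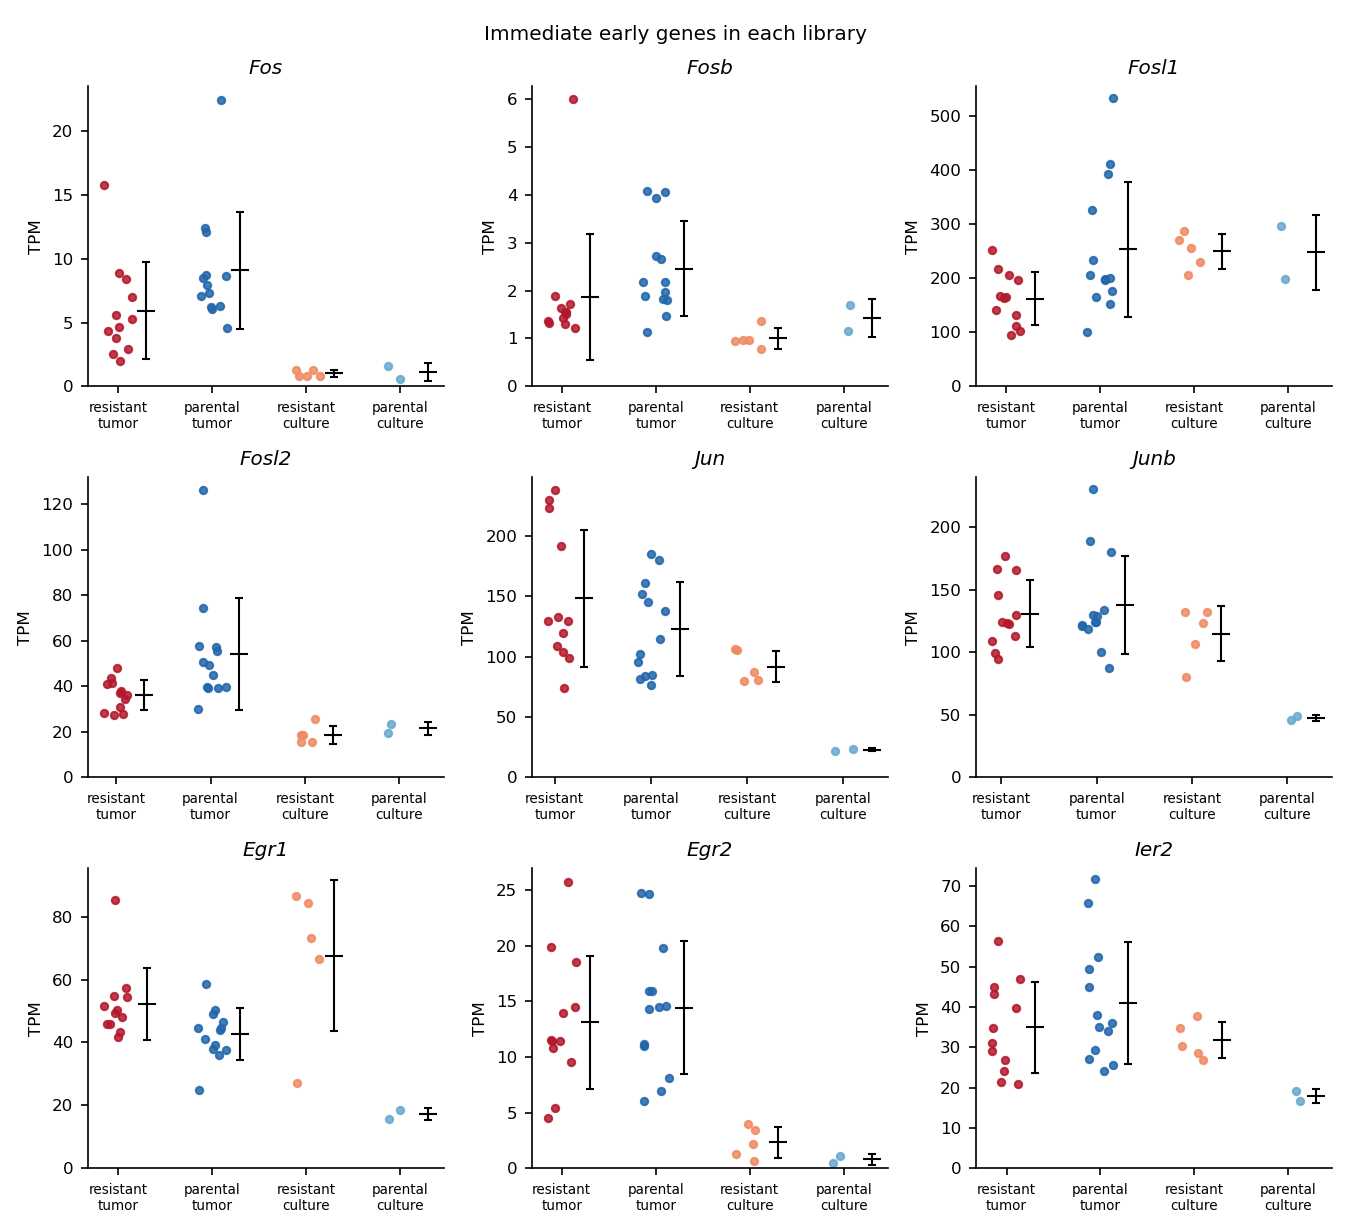
Level in TPM (vertical axes, each from 0) of 9 immediate early genes in every library, with 1 point per library and the mean and SD beside each group. From left to right stand 12 resistant tumors, 13 parental tumors, 5 resistant cultures and 2 parental cultures. Jun, Junb, Egr1 and Ier2 were higher in all 5 resistant cultures than in both parental cultures, while the tumors of the 2 lines overlapped for every gene. Groups of 5 and 2 separate more readily than groups of 12 and 13, and the share of all genes that separate is not given here.

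Among the Fos genes, Fosl1 was by far the most abundant in each group. Fosl1, which encodes Fra-1, reached 95.3, 164 and 253 TPM (lowest, median and highest) in resistant tumors, against 100.3, 201 and 534 TPM in parental tumors. Resistant cultures held 205, 230, 287, 257 and 271 TPM, against 298 and 199 TPM in parental cultures. The lines overlapped in both settings, and 12 of 12 resistant tumors lay below the parental tumor mean of 254 ± 125 TPM (SD, n = 13). That mean includes the 4 tumors of high GC index, and the other 9 parental tumors averaged 181 TPM. Fosl1 made up 78.1 ± 3.86% of the summed Fos, Fosb, Fosl1 and Fosl2 level in resistant tumors (SD, n = 12) and 78.3 ± 5.68% in parental tumors (n = 13). In culture its share was 92.2 ± 2.33% in resistant cells (n = 5) and 90.7 ± 3.73% in parental cells (n = 2).

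Fosl2, which encodes Fra-2, a close relative of Fra-1 that likewise lacks the strong activating region of c-Fos, had 27.2, 36.6 and 48.0 TPM in resistant tumors, against 30.1, 49.5 and 126 TPM in parental tumors. Resistant cultures held 25.5, 15.7, 15.7, 18.4 and 18.4 TPM, against 19.5 and 23.6 TPM in parental cultures. The tumors of both lines lay above all of their own cultures for Fosl2. The cultures were few, and the share of all genes that separate in this way is not given here.

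Fos itself, the founding member whose brief induction by serum defined the class, was scarce. It had 2.0, 4.96 and 15.8 TPM in resistant tumors, against 4.55, 7.94 and 22.4 TPM in parental tumors. Resistant cultures held 1.31, 0.834, 0.811, 1.29 and 0.782 TPM, against 0.609 and 1.62 TPM in parental cultures. No tumor of either line fell to the level of its cultures, which were few, and the share of all genes that separate so is not given here. Of the resistant tumors, 11 of 12 lay below the parental tumor mean. That mean includes the 4 tumors of high GC index, and the other 9 parental tumors averaged 6.98 TPM. Resistant tumor replicate 10 was the highest of its group for Fos, for Fosb at 6.002 TPM and for Egr1 at 85.2 TPM. Parental tumor replicate 2 was the highest of its group for Fos and for Fosl1.

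Fosb, a Fos paralog best known from neurons, had a lower median than Fos in tumors of both lines, but lay above Fos in both parental cultures. It had 1.22, 1.53 and 6.002 TPM in resistant tumors, against 1.14, 2.18 and 4.09 TPM in parental tumors. Resistant cultures held 0.784, 1.36, 0.962, 0.971 and 0.937 TPM, against 1.15 and 1.70 TPM in parental cultures. All groups overlapped.

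Jun, the c-Jun gene, whose protein is the main target of the JNK kinases, separated the cultures. Resistant cultures held 81.1, 106, 87.1, 105 and 79.4 TPM, against 22.2 and 23.7 TPM in parental cultures. In tumors it had 73.7, 130 and 238 TPM in the resistant line, against 76.3, 114 and 185 TPM in the parental line. All 5 resistant cultures thus stood above both parental cultures, while the tumors overlapped, with 4 resistant tumors above the highest parental tumor and 1 below the lowest. The 4 parental tumors of high GC index held 152 to 185 TPM of Jun, against 76.3 to 146 TPM in the other 9. Groups as small as the cultures separate more readily than the larger groups of tumors.

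Junb, a Jun paralog that often restrains Jun, showed the same order. Resistant cultures held 80.5, 132, 132, 123 and 107 TPM, against 48.9 and 45.8 TPM in parental cultures. Tumors had 94.1, 124 and 177 TPM in the resistant line, against 87.2, 124 and 231 TPM in the parental line. Jun was 44.7 ± 3.88% of the summed Jun and Junb level in resistant cultures (SD, n = 5) and 32.7 ± 2.05% in parental cultures (n = 2). It was 51.96 ± 5.96% of that sum in resistant tumors (n = 12) and 46.9 ± 7.05% in parental tumors (n = 13). Jund, the broadly expressed Jun paralog, was among 1301 genes listed at 0 in every library, so nothing can be said of its level or its differences.

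Egr1, a zinc finger factor induced through ERK and serum response factor, was lower in parental culture than in any other group. Resistant cultures held 27.2, 73.3, 84.3, 86.7 and 66.6 TPM, against 15.8 and 18.5 TPM in parental cultures. The lowest resistant culture, replicate 1, stood well below the other 4 and was also the lowest of them for Junb. Tumors had 41.7, 49.7 and 85.2 TPM in the resistant line, against 24.96, 43.9 and 58.5 TPM in the parental line. Egr2, known for its part in myelination and in restraining T cells, was scarce in culture, with 0.664, 2.20, 1.33, 3.99 and 3.48 TPM in resistant cells, against 0.471 and 1.12 TPM in parental cells. It had 4.51, 11.5 and 25.7 TPM in resistant tumors, against 6.09, 14.5 and 24.7 TPM in parental tumors, with no tumor in the range of the cultures. As for Fosl2 and Fos, the share of all genes that separate in this way is not given here.

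Ier2 had 30.4, 28.7, 37.8, 34.8 and 26.99 TPM in resistant cultures, against 19.1 and 16.6 TPM in parental cultures. It had 21.01, 32.95 and 56.5 TPM in resistant tumors, against 24.1, 35.9 and 71.7 TPM in parental tumors. The small groups of cultures did not overlap between the 2 lines for Ier2, and the larger groups of tumors did.

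The first comparison asked how the resistant line differs from the parental line in culture, without host tissue. Jun, Junb, Egr1 and Ier2 were higher in resistant cells, no gene of the set was lower, and the Fos genes and Egr2 did not pass the test. Jun averaged 91.8 ± 13.0 TPM in resistant cultures and 22.95 ± 1.07 TPM in parental cultures (SD, n = 5 and 2), a ratio of 4.001. Egr1 averaged 67.6 ± 24.0 TPM in resistant cultures and 17.1 ± 1.92 TPM in parental cultures, a ratio of 3.95. The ratio of means was 2.42 for Junb and 1.78 for Ier2. Differences were tested with limma on log2(TPM + 1), a scale that understates the change of low genes. P-values were adjusted by Benjamini-Hochberg across the tested genes, and calls were made under 0.05. The limma log2 difference was 1.94 ± 0.16 (SE, adjusted p = 0.000228) for Jun, 1.24 ± 0.20 (0.0045) for Junb, 1.82 ± 0.39 (0.0163) for Egr1 and 0.79 ± 0.18 (0.0188) for Ier2. These were 4 of the 9 genes tested, where 14.2% of all 11201 genes tested were called in either direction. The median difference of the 9 genes was 0.79, against -0.01 over all genes.

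The Fos genes gave small differences between the cultures. They were -0.04 ± 0.30 for Fos (limma adjusted p = 0.945), 0.03 ± 0.19 for Fosl1 (0.942), -0.21 ± 0.21 for Fosl2 (0.566) and -0.27 ± 0.26 for Fosb (0.536). Egr2 gave 0.80 ± 0.44 (0.256). The parental group held only 2 cultures. Without either of them the calls of Jun and Junb held, while those of Egr1 (limma adjusted p = 0.111 and 0.0831) and Ier2 (0.0712 and 0.13) were lost, with the lone parental culture assumed to vary like the resistant ones. Without resistant culture replicate 1, the difference in Egr1 was 2.12 (limma adjusted p = 0.000113).

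Markers of other cells were checked in the same cultures. The summed level of 6 fibroblast and pericyte markers was 275 to 864 TPM in resistant cultures and 38.0 to 64.1 TPM in parental cultures, with Lum listed at 0 in all of them, and Dcn and Pdgfrb were 2 of 5 tested markers that rose. The 4 leukocyte markers summed to 17.4 to 131 TPM in resistant cultures and 2.43 to 5.94 TPM in parental cultures, where Cd53 was listed at 0. Of the 2 leukocyte markers tested, Laptm5 was higher in resistant cultures. The 8 macrophage markers summed to 6.004 to 9.20 TPM in resistant cultures and 12.1 to 31.98 TPM in parental cultures, where Adgre1, C1qb and Ms4a7 were listed at 0, and Cd68, the one of them tested, was lower in resistant cultures. T and NK cell markers did not exceed 0.366 TPM in sum in any culture. The part of these differences in the immediate early genes was not tested.

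Genes around the AP-1 and Egr pathway were described from lists, each by its count. Over all genes tested in culture, 6.15% were higher and 8.04% lower in resistant cells, and no list was tested against these shares. Among 31 other immediate early genes tested in culture, 10 were higher and 5 lower in resistant cells. Zfp36l1, which promotes decay of AU-rich mRNAs, held 368, 297, 411, 426 and 384 TPM in resistant cultures, against 91.4 and 96.3 TPM in parental cultures (limma log2 difference 1.98 ± 0.15, adjusted p = 0.000183). Trib1, a pseudokinase that binds MAP kinase kinases, was higher by 1.77 ± 0.24 (limma adjusted p = 0.00211). Klf4, a zinc finger factor of epithelial differentiation, held 6.06, 2.40, 4.39, 3.15 and 4.35 TPM in resistant cultures, against 23.3 and 24.9 TPM in parental cultures. Klf4 fell by 2.35 ± 0.28 on the log2 scale (limma adjusted p = 0.00126), and the stress gene Gadd45g fell by 1.28 ± 0.17 (0.00217). These 4 calls held without any one culture.

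Of 14 feedback inhibitors tested in culture, 3 were higher and 1 lower. Dusp6, the phosphatase that ERK signaling induces to switch ERK off, held 43.4, 52.3, 43.2, 50.6 and 38.4 TPM in resistant cultures, against 9.15 and 9.83 TPM in parental cultures (limma log2 difference 2.14 ± 0.17, adjusted p = 0.000183). Spry4, an inhibitor of receptor tyrosine kinase signaling, was higher by 1.55 ± 0.22 (limma adjusted p = 0.00273). The phosphatase gene Dusp2 was higher by 1.07 ± 0.28 (0.0334). Dusp4, another phosphatase of MAP kinases, fell by 1.73 ± 0.28 (0.0048). The calls of Dusp6 and Spry4 held without any one culture, while that of Dusp4 was lost without parental culture replicate 2 and that of Dusp2 without either parental culture or without resistant culture replicates 2, 3 or 4.

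Of 22 upstream kinases and promoter factors tested in culture, 4 were higher and none was lower by limma's adjusted p. They included the JNK1 gene Mapk8 (0.70 ± 0.15), the serum response factor partner Elk4 (0.58 ± 0.14) and Creb1 (0.52 ± 0.15). These calls were lost without either parental culture, and those of Elk4 and Creb1 also without single resistant cultures. Of 10 other AP-1 partners, Batf2 (2.21 ± 0.40) and Jdp2 (1.44 ± 0.34) were higher. Batf3 (-1.26 ± 0.35) was called lower, but it reached the 1 TPM filter through the parental cultures alone, so its direction was set by the filter. Batf2 lost its call without parental culture replicate 1, Jdp2 without either parental culture, and Batf3 without resistant culture replicates 2, 4 or 5, while without either parental culture Batf3 was too low to be tested. Of 12 AP-1 target genes tested, 3 were higher and 2 lower. Mmp9, a gelatinase that degrades matrix, held 80.4, 138, 179.5, 148 and 123 TPM in resistant cultures, against 0.0719 and 1.84 TPM in parental cultures (limma log2 difference 6.22 ± 0.38, adjusted p = 7.08e-05). Parental cultures alone did not bring Mmp9 to the 1 TPM filter, so it was tested through the resistant cultures, where it was high. The cyclin gene Ccnd1 was higher by 0.78 ± 0.11, the urokinase receptor gene Plaur was lower (-0.79 ± 0.12), and the EGF receptor ligand Areg was lower (-1.44 ± 0.36). The calls of Mmp9, Ccnd1 and Plaur held without any one culture, and that of Areg was lost without either parental culture or without resistant culture replicates 2 or 3. Of 8 heat shock genes tested, Hspa1b was lower (-1.43 ± 0.38) and no other gene passed. Its call was lost without any one culture except resistant culture replicate 1.

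**Figure D2:**
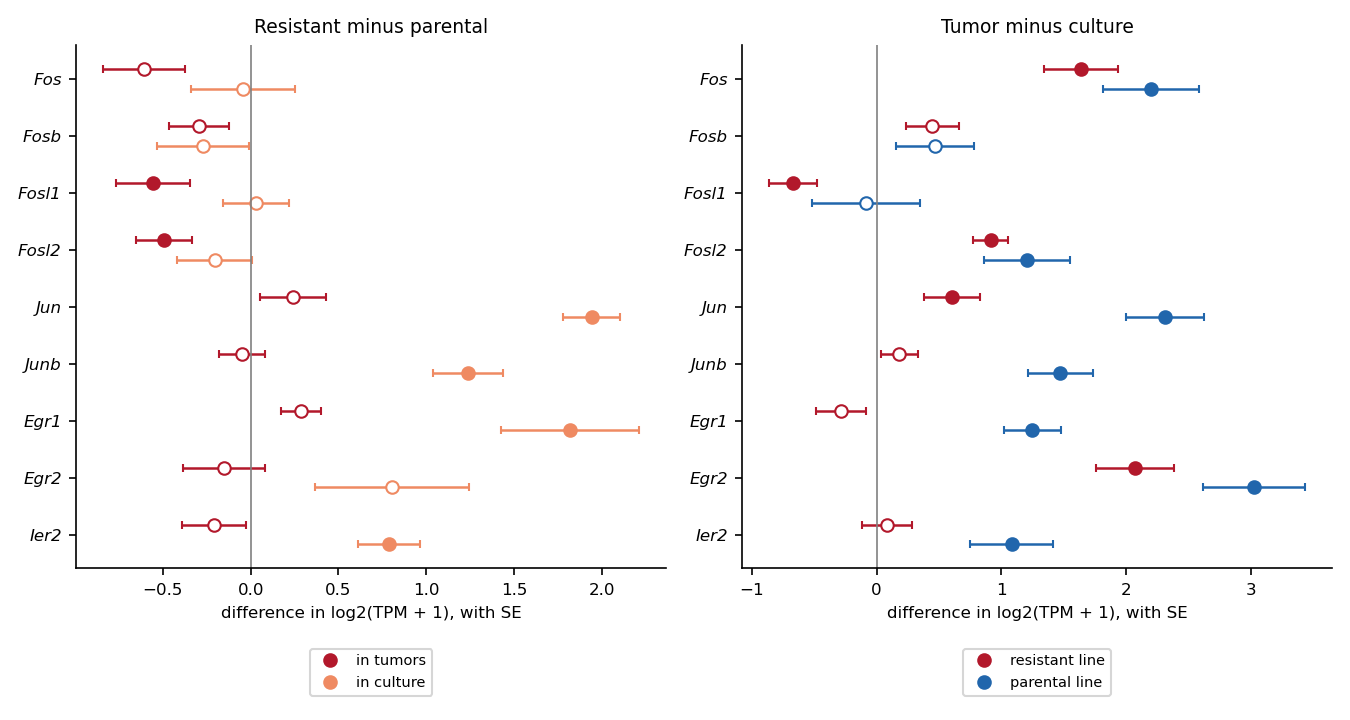
Difference in log2(TPM + 1) with its SE for 9 immediate early genes, resistant minus parental on the left (tumors and cultures) and tumor minus culture on the right (resistant and parental line). Filled points passed limma's adjusted p of 0.05 and open points did not. Jun, Junb, Egr1 and Ier2 lie far to the right in culture (0.79 to 1.94) and near 0 in tumors (-0.21 to 0.29). The tumor values include the 4 parental tumors of high GC index.

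The second comparison set untreated tumors of the resistant line against untreated parental tumors. Fosl1 and Fosl2 were lower in resistant tumors and no gene of the set was higher. Fosl1 averaged 162 ± 49.1 TPM in resistant tumors and 254 ± 125 TPM in parental tumors (SD, n = 12 and 13), a limma log2 difference of -0.56 ± 0.21 (SE, adjusted p = 0.0475). Fosl2 averaged 36.2 ± 6.71 TPM in resistant tumors and 54.2 ± 24.5 TPM in parental tumors, a difference of -0.50 ± 0.16 (limma adjusted p = 0.0186). For both genes 12 of 12 resistant tumors were under the mean of the parental tumors. That mean includes 4 parental tumors of high GC index. The other 9 averaged 181 TPM of Fosl1 and 43.35 TPM of Fosl2, within the range of the resistant tumors. Fosl1 and Fosl2 were 2 of 9 genes tested, where 30.2% of all 12095 genes tested were called, so the share called in the set was below that background. The median difference of the set was -0.21, against 0.04 over all genes.

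The other members did not pass in tumors. Fos averaged 5.93 ± 3.79 TPM in resistant tumors and 9.09 ± 4.59 TPM in parental tumors, a difference of -0.61 ± 0.23 (limma adjusted p = 0.0502). Egr1 gave 0.29 ± 0.11 (0.0541), Jun 0.24 ± 0.19 (0.345), Junb -0.05 ± 0.13 (0.792), Ier2 -0.21 ± 0.18 (0.399), Egr2 -0.15 ± 0.23 (0.654) and Fosb -0.30 ± 0.17 (0.194). Fos and Egr1 stood close to the threshold. Without resistant tumor replicate 10, the difference in Fos was -0.74 (limma adjusted p = 0.011) and that in Fosb was -0.42 (0.0238). Fos passed in 8 of 25 fits that left out 1 tumor (resistant tumor replicates 2, 10, 11 and 12, parental tumor replicates 4, 9, 11 and 12). Egr1 passed in 5 of 25 (resistant tumor replicates 6 and 9, parental tumor replicates 3, 4 and 9). The Fosl1 call was lost in 15 of these 25 fits, those without resistant tumor replicate 1, 2, 4, 5, 6, 7, 8 or 10 or parental tumor replicate 2, 3, 5, 6, 7, 8 or 9. Over the 25 fits its adjusted p ran from 0.0126 to 0.0871 by limma, and the call of Fosl2 held in all 25.

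The 4 parental tumors of high GC index moved with this result. They held 328 to 534 TPM of Fosl1, against 100.3 to 234 TPM in the other 9 parental tumors. They held 55.4 to 126 TPM of Fosl2, against 30.1 to 57.4 TPM in the other 9, and 49.3 to 71.7 TPM of Ier2, against 24.1 to 45.1 TPM. For Jun they held 152 to 185 TPM, against 76.3 to 146 TPM, and for Junb 130 to 231 TPM, against 87.2 to 134 TPM. Egr1 did not follow, with 24.96 to 50.2 TPM in the 4 tumors and 38.0 to 58.5 TPM in the other 9. Transcript GC content of the set was 51.4% (Egr2) to 67.1% (Jund), and the median of genes at 5 TPM or more was 49.5%. Without these 4 tumors no member was called: Fosl1 gave -0.18 (limma adjusted p = 0.437) and Fosl2 -0.26 (0.106). With the GC index as a covariate 2 members were called, but they were other genes and both were higher in resistant tumors, Jun by 0.65 (limma adjusted p = 0.000198) and Ier2 by 0.24 (0.0167). The shares of all genes called in these 2 alternative fits are not given here, so the counts are not set against them.

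**Figure D3:**
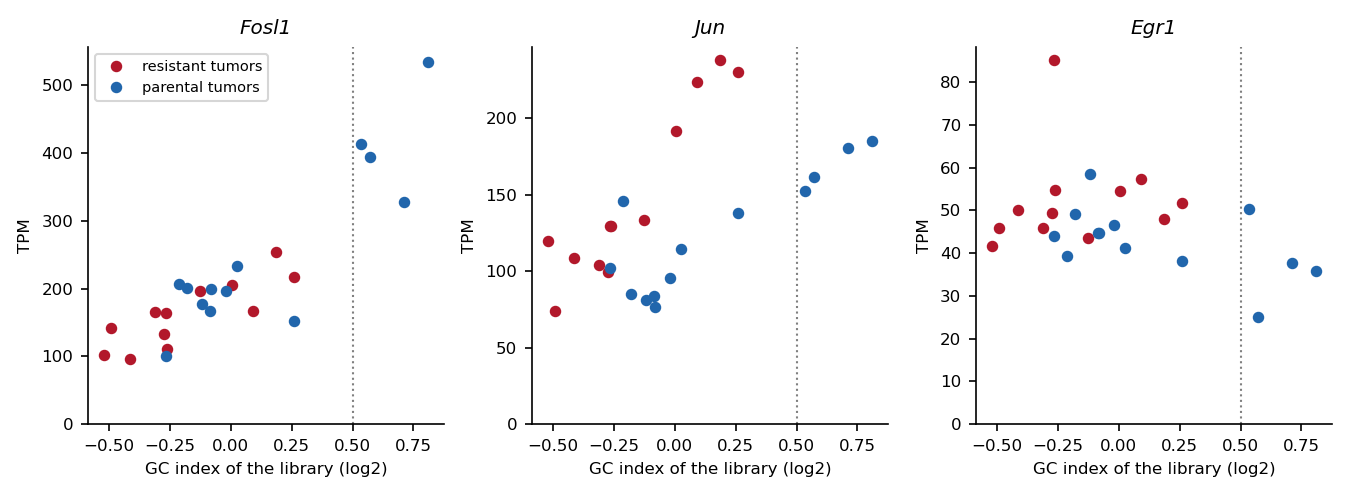
Level in TPM (vertical axes) of Fosl1, Jun and Egr1 against the GC index of the library (horizontal axes, log2) in 12 resistant and 13 parental tumors, with 1 point per tumor and a dotted line at 0.5. The 4 parental tumors right of the line hold the 4 highest Fosl1 levels (328 to 534 TPM), while their Egr1 levels (24.96 to 50.2 TPM) lie within or below those of the other tumors.

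Cell makeup also differed between the tumors of the 2 lines. The counts of markers below stand beside 16.3% of all genes tested that were higher and 13.9% that were lower in resistant tumors. Of 8 macrophage markers, 7 were lower in resistant tumors, and the summed level was 288 to 554 TPM (median 382) in resistant tumors and 287 to 1189 TPM (median 894) in parental tumors. Of 4 leukocyte markers 2 were lower, of 3 tested neutrophil markers 2, and of 6 T and NK cell markers 2, and none was higher. Of 6 fibroblast and pericyte markers 4 were higher, with a summed level of 428 to 1551 TPM in resistant tumors and 106 to 1021 TPM in parental tumors. Of 4 skeletal muscle markers 3 were higher. None of 6 endothelial markers passed. No marker of these lists was at 0 in all tumors of a line except the neutrophil marker Retnlg in resistant tumors. With the level of Ptprc, which encodes CD45 of all leukocytes, in the fit, 5 members were called: Egr1 was higher by 0.33 (limma adjusted p = 0.0274), while Fos (-0.79, 0.00924), Fosl1, Fosl2 and Ier2 (-0.43, 0.0283) were lower. The share of all genes called in that fit is not given here, so the count of 5 is not read as a result about the set. The part of cell makeup in the difference between lines was otherwise not tested.

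**Figure D4:**
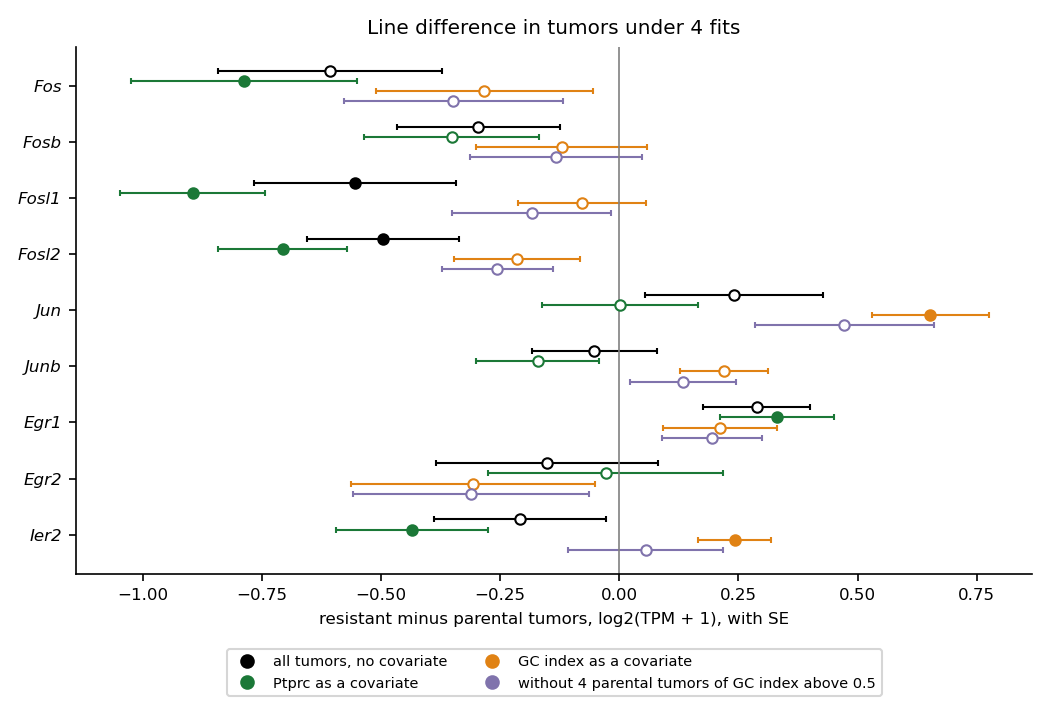
Resistant minus parental tumor difference in log2(TPM + 1), with its SE, for 9 immediate early genes under 4 fits: all 25 tumors, Ptprc as a covariate, the GC index as a covariate, and without the 4 parental tumors of GC index above 0.5. Filled points passed limma's adjusted p of 0.05. Fosl1 moves between -0.08 and -0.90 and Ier2 between 0.24 and -0.43, while Egr1 stays between 0.20 and 0.33.

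The lists of related genes moved in both directions in tumors. Over all genes tested, 16.3% were higher and 13.9% lower in resistant tumors, and no list was tested against these shares. Of 12 other AP-1 partners, 2 were higher and 4 lower in resistant tumors. Atf3, a stress-induced partner of Jun, averaged 3.64 ± 1.41 TPM in resistant tumors and 6.74 ± 2.01 TPM in parental tumors (limma log2 difference -0.75 ± 0.16, adjusted p = 0.000892). Batf (-0.93 ± 0.22) and Batf3 (-1.20 ± 0.23), partners of Jun best known from lymphocytes and dendritic cells, were lower as well, while Atf2 was higher (0.42 ± 0.10). Of 32 other immediate early genes, 3 were higher and 8 lower. The lower genes included the polo-like kinase gene Plk2 (-1.13 ± 0.14, limma adjusted p = 7.09e-07), Zfp36, which encodes an mRNA decay factor (-0.69 ± 0.11), Klf2 (-1.12 ± 0.19) and Klf10 (-0.59 ± 0.11).

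Of 22 upstream kinases and promoter factors in tumors, 7 were higher and 1 lower. Elk4 averaged 152 ± 10.95 TPM in resistant tumors and 104 ± 16.6 TPM in parental tumors (limma log2 difference 0.56 ± 0.08, adjusted p = 8.29e-06). Mkl2, a coactivator of serum response factor, was higher too (0.56 ± 0.15). Of 15 feedback inhibitors 3 were higher, Dusp16 (1.03 ± 0.24), Spred1 (0.82 ± 0.27) and Dusp6 (0.34 ± 0.12), and Dusp4 was lower (-0.85 ± 0.20). With the GC index as a covariate, Mkl2, Spred1 and Dusp6 did not pass, and Dusp6 also lost its call in 7 of 25 fits that left out 1 tumor (resistant tumor replicates 1, 3, 5 and 6, parental tumor replicates 2, 7 and 8). Of 16 AP-1 target genes tested, 5 were higher and 4 lower. Mmp9 averaged 428 ± 70.4 TPM in resistant tumors and 192 ± 160 TPM in parental tumors (limma log2 difference 1.48 ± 0.28, adjusted p = 0.000215). Vegfa, the angiogenic growth factor (0.59 ± 0.12), and the collagenase gene Mmp13 (1.19 ± 0.26) were higher and Plaur was lower (-0.64 ± 0.14). Of 10 heat shock genes 4 were higher and none lower, with a summed level of 3508 to 4298 TPM in resistant tumors and 2742 to 4000 TPM in parental tumors. They were Hsph1 (0.59 ± 0.11), Hsp90aa1 (0.53 ± 0.11), Dnaja1 (0.44 ± 0.12) and Hspa8 (0.29 ± 0.08).

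Whether the line difference itself depended on the setting was tested in 1 limma fit of all 32 libraries, by subtracting the line difference in culture from the one in tumors. Jun, Junb and Egr1 passed, all negative, so the resistant minus parental difference of these genes was lower in tumors than in culture. The estimate was -1.70 ± 0.40 (SE, limma adjusted p = 0.00856) for Jun, -1.29 ± 0.29 (0.00615) for Junb and -1.53 ± 0.32 (0.00286) for Egr1. These were 3 of 9 genes tested, where 4.01% of all 15061 genes tested were called. Ier2, higher in resistant cells in culture, gave -0.998 ± 0.39 (limma adjusted p = 0.173). Egr2 gave -0.96 ± 0.55 (0.445), Fosl1 -0.59 ± 0.46 (0.648), Fos -0.56 ± 0.51 (0.718), Fosl2 -0.29 ± 0.35 (0.812) and Fosb -0.02 ± 0.37 (0.988).

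These estimates rest on the same 2 parental cultures as the culture comparison. They also include the 4 parental tumors of high GC index. Those tumors held 152 to 185 TPM of Jun, against 76.3 to 146 TPM in the other 9. Without parental culture replicate 1, Jun gave -1.66 (limma adjusted p = 0.0745) and Egr1 -1.42 (0.0511), and Junb alone passed (0.0429). Without parental culture replicate 2, Jun gave -1.75 (0.0876) and Junb -1.24 (0.103), and Egr1 alone passed (0.0301). The sizes changed little in these fits and the calls did. With all libraries, 2.4% of all genes tested were called higher and 1.61% lower in this contrast. Of 15 feedback inhibitors, Dusp6 (-1.80 ± 0.27, limma adjusted p = 2.95e-05), Spry4 (-1.41 ± 0.32) and Dusp2 (-1.32 ± 0.37) gave negative estimates. For Dusp6 the line difference was positive in both settings, 0.34 in tumors and 2.14 in culture. Of 34 other immediate early genes, 3 were higher and 6 lower in this contrast, among them Zfp36l1 (-1.84 ± 0.24), Trib1 (-1.40 ± 0.25), Klf2 (-2.05 ± 0.41) and Gadd45g (1.59 ± 0.31). Of the other lists, 1 of 12 AP-1 partners passed, Batf2 (-1.94 ± 0.34), as did 2 of 17 AP-1 target genes, Mmp9 (-4.74 ± 0.62) and Ccnd1 (-0.74 ± 0.19). The calls of Spry4, Dusp2 and Ccnd1 were lost without either parental culture, and that of Dusp2 also without resistant culture replicates 2, 3 or 4. None of 22 upstream factors and none of 10 heat shock genes passed in this limma fit. Of 4 leukocyte and 8 macrophage markers, 2 each passed and were negative, as did Dcn (-5.48 ± 0.95) of the fibroblast and pericyte markers.

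Tumors were next set against cultures of the same line. Their titles carry different prefixes, so setting and title series cannot be told apart. These comparisons share their samples with the line comparisons and with the contrast of settings, so the values below are given side by side and are no independent evidence. In the resistant line 4 of 9 genes were higher in tumors and 1 was lower, where 50.3% of all 12312 genes tested were called. Egr2 averaged 13.1 ± 6.004 TPM in resistant tumors and 2.33 ± 1.40 TPM in resistant cultures (SD, n = 12 and 5), a limma log2 difference of 2.07 ± 0.31 (adjusted p = 1.52e-05). Fos averaged 5.93 ± 3.79 TPM in resistant tumors and 1.004 ± 0.269 TPM in resistant cultures, a difference of 1.63 ± 0.30 (limma adjusted p = 0.000122). Resistant cultures alone did not bring Egr2 or Fos to the 1 TPM filter. Both were thus tested through the resistant tumors, where they were high. With no filter both were called as well (limma adjusted p = 7.41e-05 for Egr2 and 0.00046 for Fos). Fosl2 was higher by 0.91 ± 0.14 and Jun by 0.60 ± 0.23 (limma adjusted p = 0.0314). Fosl1 was lower, at 162 ± 49.1 TPM in resistant tumors, below the lowest culture in 9 of 12, against 205 to 287 TPM in resistant cultures (-0.67 ± 0.19, limma adjusted p = 0.00623). Junb (0.18 ± 0.15), Ier2 (0.08 ± 0.20), Egr1 (-0.28 ± 0.20) and Fosb (0.45 ± 0.21) did not pass. The Jun call was lost without resistant culture replicate 1, 3 or 5, and without replicate 1 Egr1 was called lower in tumors (-0.58, limma adjusted p = 0.00239).

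In the parental line 7 of 9 genes were higher in tumors and none was lower, where 22.1% of all 14348 genes tested were called. Egr2 averaged 14.4 ± 6.003 TPM in parental tumors and 0.794 ± 0.457 TPM in parental cultures (SD, n = 13 and 2), a limma log2 difference of 3.02 ± 0.41 (adjusted p = 2.12e-05). Fos averaged 9.09 ± 4.59 TPM in parental tumors and 1.11 ± 0.715 TPM in parental cultures, a difference of 2.20 ± 0.38 (limma adjusted p = 0.000347). Parental cultures alone did not bring Egr2 or Fos to the 1 TPM filter. Both were thus tested through the parental tumors, where they were high. With no filter both were called as well (limma adjusted p = 9.2e-05 for Egr2 and 0.00108 for Fos). Jun was higher in tumors by 2.31 ± 0.31, Junb by 1.47 ± 0.26, Egr1 by 1.25 ± 0.23, Fosl2 by 1.202 ± 0.35 (limma adjusted p = 0.0174) and Ier2 by 1.08 ± 0.34 (0.0268). Fosl1 (-0.08 ± 0.43) and Fosb (0.47 ± 0.31) did not pass. The calls of Fosl2 and Ier2 were lost without either parental culture.

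Most genes read higher in tumors on this scale. The median difference over all genes was 0.18 in the resistant line and 0.21 in the parental line. Of all calls, 70.2% were higher in resistant tumors than in their cultures and 72.9% in parental tumors. With quantile normalization the share was 38.9% in the resistant line and 47.9% in the parental line, and with median-of-ratios scaling 63.1% and 70.3%. Under quantile normalization Fos did not pass in the resistant line (0.60, limma adjusted p = 0.133), Fosb was called lower there (-0.71, 0.00946), and Ier2 did not pass in the parental line (0.0735). The Jun call of the resistant line was lost with median-of-ratios scaling (0.52, limma adjusted p = 0.0518) and with no filter (0.0568), and Egr1 was called lower there with array weights (-0.46, 0.0285). Markers of host cells moved with the setting. All 8 macrophage and all 6 endothelial markers were higher in tumors of both lines. Macrophage markers summed to 288 to 554 TPM in resistant tumors and 6.004 to 9.20 TPM in resistant cultures, and to 287 to 1189 TPM in parental tumors and 12.1 to 31.98 TPM in parental cultures. Endothelial markers summed to 52.4 to 109 TPM in resistant tumors and 0.279 to 8.10 TPM in resistant cultures, and to 65.2 to 128 TPM in parental tumors and 0.984 to 4.17 TPM in parental cultures. The part of host cells in the tumor levels of the members was not tested.

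Of the other AP-1 partners, 9 of 11 were higher in resistant tumors than in resistant cultures, and 8 of 12 in parental tumors than in parental cultures, with none lower in either line. Over all genes tested, 35.3% were higher and 15% lower in resistant tumors than in their cultures. In parental tumors 16.1% were higher and 5.99% lower. These shares apply to the other lists below as well, and no list was tested against them. Batf2, Maf and Atf3 were higher in tumors of both lines, Batf2 by 3.07 ± 0.21 in the resistant line and 5.01 ± 0.24 in the parental line. Of the other immediate early genes, 15 of 33 were higher and 2 lower in resistant tumors, and 14 of 34 higher and 2 lower in parental tumors. Ctgf, a matrix-associated target of YAP, was higher by 3.96 ± 0.22 in resistant tumors and by 2.89 ± 0.38 in parental tumors, and Socs3, a brake on cytokine signaling, by 2.16 ± 0.16 and 1.70 ± 0.28. Ier3 was lower in resistant tumors (-2.42 ± 0.20) and Gadd45g higher (2.001 ± 0.17). In parental tumors Zfp36l1 (2.16 ± 0.22) and Trib1 (1.54 ± 0.21) were higher.

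Of 15 feedback inhibitors, 8 were higher in resistant tumors and 6 in parental tumors than in culture, and none was lower by limma's adjusted p. Dusp1, a phosphatase of MAP kinases, averaged 16.04 ± 5.04 TPM in resistant tumors and 4.07 ± 0.857 TPM in resistant cultures (limma log2 difference 1.70 ± 0.20, adjusted p = 4.52e-07). Dusp10 (1.12 ± 0.13), Spry1 (1.32 ± 0.22) and Dusp16 (0.89 ± 0.18) were higher in resistant tumors. Dusp6 (2.22 ± 0.28), Spry4 (1.49 ± 0.32), Dusp2 (1.38 ± 0.33) and Dusp5 (1.21 ± 0.24) were higher in parental tumors. Of the upstream factors, 6 of 22 were higher and 1 lower in resistant tumors, and 1 of 22 was higher in parental tumors, Elk4 (0.74 ± 0.19). The genes higher in resistant tumors included Elk4 (0.72 ± 0.08), Elk3 (0.75 ± 0.15) and the MEK1 gene Map2k1 (0.79 ± 0.16), and Hras was lower (-0.47 ± 0.11). The parental call of Elk4 was lost without parental culture replicate 1 and that of Dusp2 without replicate 2. With quantile normalization, Dusp2, Dusp5 and Spry4 lost their calls in the parental line and Spry1 and Dusp16 in the resistant line.

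Of the AP-1 target genes, 7 of 16 were higher and 6 lower in resistant tumors than in resistant cultures, and 6 of 17 higher and 2 lower in parental tumors than in parental cultures. Plau, which encodes urokinase, was higher by 3.78 ± 0.15 in the resistant line, and in the parental line it was called higher and listed at 0 in both cultures. It thus reached the filter through the parental tumors alone, so its direction there was set by the filter. Mmp13 was higher by 4.24 ± 0.33 in the resistant line and by 3.02 ± 0.39 in the parental line. Vegfa was higher by 1.43 ± 0.10 in resistant tumors, and Mmp9 by 6.44 ± 0.67 in parental tumors. Mmp9 too was tested in the parental line through the tumors, as its parental cultures alone did not reach the filter. Ereg, an EGF receptor ligand, was lower by limma in both lines (-3.04 ± 0.27 in the resistant and -2.55 ± 0.48 in the parental line). Heat shock genes, read as signs of handling or stress, did not move one way. In resistant tumors 4 of 10 were higher, among them Hspa1a (1.28 ± 0.23) and Hspa1b (2.10 ± 0.39), and 4 were lower, among them Hspd1 (-0.63 ± 0.09) and Hsph1 (-0.62 ± 0.10). In parental tumors none of 10 was higher and 2 were lower, Hsph1 (-1.39 ± 0.24) and Hspd1 (-0.53 ± 0.16). The parental call of Hspd1 was lost without parental culture replicate 1, and with quantile normalization that of Hspa1a in resistant tumors was lost as well.

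The members differed in how much they varied between tumors of one line. Fos had a coefficient of variation of 64.0% in resistant tumors and 50.5% in parental tumors, where the median gene had 23.8% and 30.1%. Fosb had 70.1% in resistant tumors and 40.4% in parental tumors, and Egr2 45.8% and 41.6%. Egr1 varied by 21.7% in resistant tumors and 19.1% in parental tumors, and Junb by 20.7% and 28.4%. Fosl2 varied by 18.6% in resistant tumors and 45.3% in parental tumors, and Fosl1 by 30.2% and 49.3%. These values depended on few tumors. Without resistant tumor replicate 10, Fos varied by 45.6%, Fosb by 13.2% and Egr1 by 9.98% over the other 11 resistant tumors, and the median gene by 24.1%. Without parental tumor replicate 2, Fos varied by 29.4% over the other 12 parental tumors and the median gene by 27.1%. Without the 4 parental tumors of high GC index, Fos varied by 19.4%, Fosl1 by 21.4%, Fosl2 by 18.7%, Junb by 12.5% and Ier2 by 20.7% over the other 9, where the median gene had 21.4%. Fosb (40.3%) and Egr2 (38.1%) stayed above that median in these 9 tumors.

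**Figure D5:**
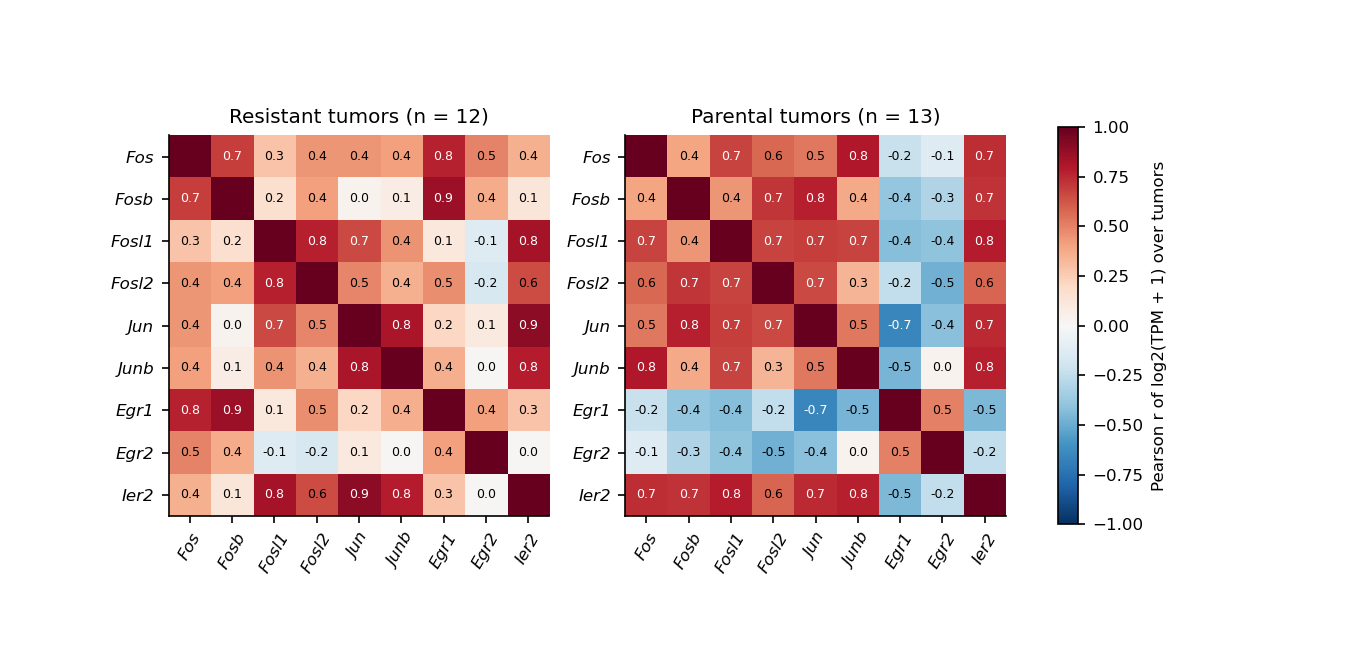
Pearson correlation of log2(TPM + 1) between each pair of 9 immediate early genes over 12 resistant tumors (left) and 13 parental tumors (right), on a scale from -1 (blue) to 1 (red). Fos and Egr1 rise together in resistant tumors (0.767) and do not in parental tumors (-0.223), where all pairs of Egr1 with a Fos or Jun gene or Ier2 are negative. Without the 4 parental tumors of high GC index, Fos with Egr1 gives 0.154.

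Over 36 pairs of members, the median Pearson correlation was 0.413 in resistant tumors and 0.474 in parental tumors. All points share their libraries and the GC index of each library, and these correlations are descriptions. The highest pair was Jun with Ier2 (0.895) in resistant tumors and Fos with Junb (0.800) in parental tumors. The lowest was Jun with Egr1 (-0.653) in parental tumors. Between the lines, Egr1 with Fosb gave 0.853 in resistant tumors and -0.384 in parental tumors, and the difference was not tested. Without resistant tumor replicate 10, Egr1 with Fosb gave 0.161 and Egr1 with Fos 0.543 over 11 tumors, and Jun with Ier2 gave 0.900. Without the 4 parental tumors of high GC index the median of the 36 pairs was -0.02 over 9 tumors, with 4 pairs above 0.5 in place of 18. There Fos with Junb gave 0.453, Jun with Egr1 -0.768 and Egr1 with Fosb -0.628.

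Fos was taken as the index gene, and every gene was fitted on the Fos level of the tumor with limma, within each line. In resistant tumors none of the 8 other members passed, and 0% of all 12094 genes tested were called, with 403 at an unadjusted p under 0.05. In parental tumors 3 of 8 passed, where 25.3% of all genes tested were called. Each slope is the change in log2(TPM + 1) per unit of log2(TPM + 1) of Fos. It was 0.57 ± 0.13 for Junb (SE, limma adjusted p = 0.00808), 0.68 ± 0.18 for Ier2 (0.0143) and 0.85 ± 0.24 for Fosl1 (0.0202).

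Correlations with Fos were computed for 16 relations, 8 in each line, with permutation tests of 100000 resamples, two-sided. Junb gave r = 0.800 (permutation p = 0.00127) and rho = 0.632 (p = 0.0241) in 13 parental tumors, and r = 0.465 without replicates 2 and 12, the 2 tumors farthest from the median Fos level. Ier2 gave r = 0.735 (permutation p = 0.00268) and rho = 0.484 (p = 0.0977) in parental tumors, and r = 0.541 without those 2. Fosl1 gave r = 0.672 (permutation p = 0.0114) and rho = 0.440 (p = 0.135), and r = 0.551 without them. In 12 resistant tumors Egr1 gave r = 0.767 (permutation p = 0.00375) and rho = 0.587 (p = 0.0474), with a limma p of 0.929 after adjustment over all genes. Its r was 0.421 without replicates 9 and 10, and 0.543 without replicate 10 alone. The limma slope of Egr1 on Fos was 0.288 in all 12 tumors, 0.304 without replicate 9 and 0.137 without replicate 10. Fosb gave r = 0.691 (permutation p = 0.0124) and rho = 0.503 (p = 0.0988) in resistant tumors, and r = 0.445 without replicates 9 and 10.

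The parental slopes depended on few tumors. No member passed without parental tumor replicate 2, with the GC index as a covariate, with Ptprc as a covariate, or without the 4 tumors of high GC index, and 5 passed without replicate 12. Fos was 8.48 to 22.4 TPM in the 4 tumors of high GC index and 4.55 to 8.71 TPM in the other 9. Within the other 9, the slope was -0.57 for Fosl1, -0.03 for Ier2 and 0.34 for Junb.

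The lists of related genes went both ways with Fos in parental tumors. Over all genes tested, 10.7% had a positive slope and 14.7% a negative one by limma's adjusted p. By limma's adjusted p, 5 of 32 other immediate early genes had a positive slope and 5 a negative one, as had 4 and 3 of 22 upstream factors and 4 and 4 of 15 feedback inhibitors. Dusp1 (0.98 ± 0.15), which encodes a MAP kinase phosphatase, and the clock gene Per1 (0.66 ± 0.14) were positive, and Spred1 (-1.53 ± 0.26), Sik1 (-1.94 ± 0.38) and Creb1 (-0.81 ± 0.16) were negative. Of the other lists, 1 of 12 AP-1 partners, 1 of 16 AP-1 target genes and 1 of 10 heat shock genes were negative and none was positive. Without the 4 tumors of high GC index no gene passed in the limma fit of parental tumors, with 572 of 12094 at an unadjusted p under 0.05. Dusp1 then gave 0.73 ± 0.34 and Spred1 0.05 ± 0.35. In resistant tumors no gene of these lists passed in the limma fit.

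Genes whose levels followed Fos most closely were ranked by the mean of the 2 within-line correlations, over 12 resistant and 13 parental tumors, among 10045 genes averaging 5 TPM or more in tumors. Dusp1, the MAP kinase phosphatase, ranked highest with a mean r of 0.866, 0.812 in resistant tumors and 0.921 in parental tumors. Its level was 9.22, 15.3 and 24.9 TPM (lowest, median and highest) in resistant tumors and 10.9, 18.9 and 47.3 TPM in parental tumors. The 4 parental tumors of high GC index held 25.3 to 47.3 TPM of Dusp1, against 10.9 to 21.01 TPM in the other 9. Over those 9 tumors Dusp1 gave r = 0.683 with Fos, and it still ranked 1 when the parental r was taken from them. The next were the homeobox gene Meis3 (0.782), Fam216a (0.774), Phldb3 (0.758), Smim8 (0.756) and Errfi1 (0.743), an inhibitor of the EGF receptor. With the parental r taken from the 9 tumors, Smim8 ranked 4, Fam216a 22, Meis3 27, Phldb3 107 and Errfi1 279, and the parental r of Errfi1 was 0.061. Of the members among the ranked genes, Junb came highest at rank 168, before Ier2 at 527, Fosl2 at 809, Jun at 989, Fosl1 at 1077, Egr1 at 2737 and Egr2 at 3465. The median mean r over all ranked genes was -0.02.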

How the data were processed

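RNA libraries of 25 tumors and 7 cultures were analysed from 1 table. The authors deposited TPM per gene symbol for 32 libraries. Each column sums to 1000000, and every column was used. Per the labels, libraries were prepared from polyA RNA with KAPA kits. Per the submitters' processing notes, STAR and GRCh38 were used. That build is human, although the gene symbols in the table are those of mouse. The quantifier, annotation and versions are not given in the sources used here. Depth per sample is unknown, so no counting interval can be given, and precision rests on the spread between libraries.

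The members, gene lists, tests and most alternatives were chosen with earlier results of these data known. Groups follow the line and setting in the labels, which pair no samples. Tumor and culture libraries carry titles with different prefixes, so setting and title series cannot be told apart. Title numbers of the parental tumors all lie below those of the resistant tumors. What prefixes and numbers stand for is not given in the sources used here. Replicates were numbered as deposited. For each comparison only its libraries entered the limma fit (limma 3.58.1, R 4.3.3), on log2 of TPM plus a pseudocount of 1, with an intensity trend, two-sided. Genes had to reach 1 TPM in a minimum number of libraries, equal to the size of the smaller group (12 for tumors, 2 for cultures, for the parental setting and for all libraries, 5 for the resistant setting). The fits of resistant against parental tumors and cultures were also run on simulated data, and the other fits were not. The outcome is not reported here. Signed differences give the resistant line or the tumor minus its counterpart.

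All 10 members were described in every comparison. From each of 6 lists, up to 4 called genes with the lowest adjusted p were named, and the 6 genes most like Fos. Some genes that this rule names are not reported here. The lists of other AP-1 partners, other immediate early genes, upstream kinases and promoter factors, feedback inhibitors, AP-1 target genes and heat shock genes were described by counts. Skipped were pseudogenes, antigen receptor segments, unnamed models, Y-linked genes and Xist. The GC index used 2146 GC-rich genes (GC fraction over 0.55) and 1274 GC-poor genes (under 0.42), each set against its tumor mean, from 10046 genes of which 98.6% had a GC value in GENCODE mouse release M21. The fits were repeated with quantile normalization or median-of-ratios scaling, with the filter dropped or set at 5 TPM, with a pseudocount of 0.1, with array weights or robust moderation, as 1 fit of all libraries, by rank-sum test, with Ptprc or the GC index in the model, and without single libraries or the 4 parental tumors of GC index above 0.5. Other steps used Python 3.11.15 (numpy 2.4.6, pandas 2.3.3, scipy 1.17.1, matplotlib 3.10.9). Promoter sequences are from RefSeq on GRCm38.p6.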

Additional observations from a re-analysis of the deposited data

Results flagged for a closer look

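The line difference of 3 genes differed between settings by the test of that difference itself, over all 32 libraries in 1 limma fit. Subtracting the line difference in culture from the one in tumors gave -1.70 for Jun (adjusted p = 0.00856), -1.29 for Junb (0.00615) and -1.53 for Egr1 (0.00286). The contrast rests on 2 parental cultures, and the calls depended on which was left out. Its parental tumors include the 4 of high GC index. When each culture was left out, Jun ran from -1.75 to -1.65, Junb from -1.41 to -1.23 and Egr1 from -1.83 to -1.42.

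Fosl2 in resistant culture replicate 1 stood apart from its group. It was the highest of 5 at 25.5 TPM, and its gap to the next library was 0.721 of the range of the group. Such a gap occurs by chance in about 1 in 20 groups, and 9 groups were examined.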

How the results depend on the processing

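Counts of members called moved by over 1.5 times in these cases. For resistant against parental tumors, 2 were called, against 1 with no filter or with array weights, 5 with Ptprc as a covariate, 0 without the parental tumors of high GC index, and 1 to 4 when each tumor was left out in turn. For the cultures, 4 were called, and 2 to 4 when each culture was left out. For the contrast of settings, the line difference in culture subtracted from the one in tumors, 3 were called, and 1 to 3 when each culture was left out. For the slopes on Fos in parental tumors, 3 were called, against 0 with the GC index in the fit, 0 with Ptprc, 0 without the tumors of high GC index, and 0 to 5 when each tumor was left out. The cause was not tested in any of these, and the share of all genes called under the alternatives is not given beside the counts. Leaving out the parental tumors of high GC index outside the tumor comparison, and single tumors from the coefficients of variation and pairs, was chosen after seeing the data.

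Some uncalled differences changed sign. In tumors, Junb was 0.036 with array weights, 0.22 with the GC index, 0.13 without the tumors of high GC index, and -0.10 to 0.013 when each tumor was left out. Ier2 in tumors was 0.24 with the GC index, where it was called, and 0.055 without those tumors. In culture, Fos was 0.17 with quantile normalization and -0.40 to 0.31 when each culture was left out, and Fosl1 was -0.26 to 0.32. In parental tumors against culture, Fosb was -0.39 with quantile normalization, and Fosl1 was -0.37 to 0.21 when each culture was left out. In resistant tumors against culture, quantile normalization gave -0.71 for Fosb and -0.077 for Ier2, and array weights gave -0.007 for Ier2. In the contrast of settings, Fosb was 0.034 with a pseudocount of 0.1, 0.17 with array weights, 0.14 without the tumors of high GC index, and -0.19 to 0.14 when each culture was left out.

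The slopes on Fos in parental tumors with the GC index as a covariate were -0.34 for Fosb, -0.23 for Jun, 0.26 for Egr1, 0.42 for Egr2 and -0.015 for Ier2. With Ptprc, Egr2 was 0.26. Without the tumors of high GC index they were -0.35 for Fosb, -0.58 for Fosl1, -0.25 for Fosl2, -0.68 for Jun, 0.11 for Egr1 and -0.031 for Ier2. Without these tumors the median r over the 36 pairs of members in parental tumors was -0.0244, and that of Fos with Egr1 was 0.154. With 1 parental culture left, it was assumed to vary like the resistant ones. Tumors were not left out in turn from the comparisons with cultures.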
